A study of Arabidopsis thaliana with 4 samples.

Results

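A set of 10 classic genes of the cold and dehydration response of Arabidopsis thaliana was followed through seedlings of the wild type and of 3 splicing-factor mutants. They were chosen by name and locus: the stress marker genes RD29A and RD29B, COR15A, COR15B, KIN1, KIN2 and COR413PM1, and the transcription factor genes CBF1, CBF2 and CBF3. All 10 were found among the 34133 loci of the deposited table. The groups were C24, a wild type accession, and the mutants prp31, zop1 and sta1, all of the C24 ecotype, and each was 1 library of messenger RNA from 10-day-old seedlings. The plants had been kept on agar plates at 23 °C under days of 16 h light and 8 h dark, and the labels mention no cold, drought or hormone treatment. The labels name no allele, line or number of plants, and they do not say whether a line carries a reporter transgene. Levels are FPKM, fragments scaled to transcript length and to library depth, a scale that allows genes of different length to be compared. With 1 library per genotype no difference has a replicate check, no p-value can be given, and the values describe these libraries.

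CBF1, CBF2 and CBF3 encode AP2/ERF transcription factors, which cold induces quickly and which bind the C-repeat or dehydration-responsive element in front of cold-regulated genes. Their best known targets are the RD29A, COR15, KIN and COR413 genes, whose products accumulate during cold acclimation. A second route runs through abscisic acid, whose bZIP factors bind the ABRE element, and RD29B is the marker gene of that route. Among the mutated genes, PRP31 and STA1 encode snRNP components of the spliceosome, and ZOP1 encodes a zinc-finger protein that also acts in splicing. STA1 is known from earlier genetics for its part in the splicing of COR15A, and the RD29A promoter driving luciferase is a standard reporter in screens for stress and silencing mutants. The values used here are 1 level per gene and do not separate spliced from unspliced transcripts.

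Stretches in front of members are shown for genes that were among the members furthest above or below the wild type in a mutant library. The elements found within these stretches differ. Each stretch is the 250 bases before the annotated gene start, read from the RefSeq TAIR10.1 genome on the strand of the gene. That genome is of another accession than C24, so the sequence in these plants may differ. Capitals mark matches, on either strand, to CCGAC (the core of the C-repeat), ACGTG (the core of the ABRE) and CGCGTT (the rapid stress response element). They also mark AATATCT, a shortened form of the evening element that is looser than the full element. The stretches are chr5:21240467-21240716, plus strand, for RD29A, chr5:21236771-21237020, plus strand, for RD29B, chr2:17712331-17712580, minus strand, for COR15A and chr4:13016236-13016485, minus strand, for CBF2.
RD29A: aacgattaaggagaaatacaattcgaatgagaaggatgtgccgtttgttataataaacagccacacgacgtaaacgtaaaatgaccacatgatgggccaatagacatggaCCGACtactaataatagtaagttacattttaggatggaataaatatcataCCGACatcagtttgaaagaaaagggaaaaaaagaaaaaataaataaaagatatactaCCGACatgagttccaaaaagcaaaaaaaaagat
RD29B: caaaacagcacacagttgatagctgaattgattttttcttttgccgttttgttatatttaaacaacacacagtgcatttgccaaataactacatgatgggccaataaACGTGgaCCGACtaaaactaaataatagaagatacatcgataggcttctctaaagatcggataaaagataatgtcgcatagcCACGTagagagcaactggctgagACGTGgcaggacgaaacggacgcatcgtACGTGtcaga
COR15A: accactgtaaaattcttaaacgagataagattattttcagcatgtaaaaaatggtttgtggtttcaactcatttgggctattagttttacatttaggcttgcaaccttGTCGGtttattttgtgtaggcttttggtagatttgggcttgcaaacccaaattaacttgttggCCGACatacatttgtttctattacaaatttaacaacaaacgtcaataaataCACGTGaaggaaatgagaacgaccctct
CBF2: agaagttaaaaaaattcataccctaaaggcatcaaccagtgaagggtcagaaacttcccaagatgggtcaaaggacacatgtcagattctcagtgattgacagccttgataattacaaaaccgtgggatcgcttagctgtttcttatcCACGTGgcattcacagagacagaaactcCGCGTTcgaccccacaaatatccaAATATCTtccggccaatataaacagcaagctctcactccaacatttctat

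In these stretches RD29A held 3 matches to CCGAC and none to ACGTG, whereas its neighbour RD29B held 1 match to CCGAC and 4 to ACGTG. COR15A held 2 matches to CCGAC and a CACGTG, which reads as ACGTG on both strands and so counts as 2 overlapping matches. CBF2 likewise held a CACGTG, together with 1 CGCGTT and 1 AATATCT. Of the other members COR413PM1 held 1 CCGAC, and KIN1 and KIN2 held 1 ACGTG each. KIN1, CBF1 and CBF3 held 1 AATATCT each, and COR15B held none of the 4. The COR15B window lies inside the gene of COR15A, apart from the 7 nt between the genes. Transcript lengths implied by the reads were shorter than in RefSeq for COR15B, CBF1 and CBF3, and slightly for CBF2 (944 against 986 nt). The starts of these genes are therefore uncertain. For the other members no length could be recovered from the reads, so their starts were not checked. Among 27443 protein-coding genes CCGAC was present in 12% of windows of this length, ACGTG in 22.9%, CGCGTT in 2.59% and AATATCT in 10.0%. At least 3 CCGAC matches, as at RD29A, occurred in 0.197% of windows. With each CACGTG counted as 2, 4 or more ACGTG matches occurred in 1.34%, whereas the 4 of RD29B are separate sites. A match is a description of the letters and not a known binding site. Motifs outside the window, also those inside the annotated gene, were not counted, so a gene without a match may still carry the element.

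**Figure D1:**
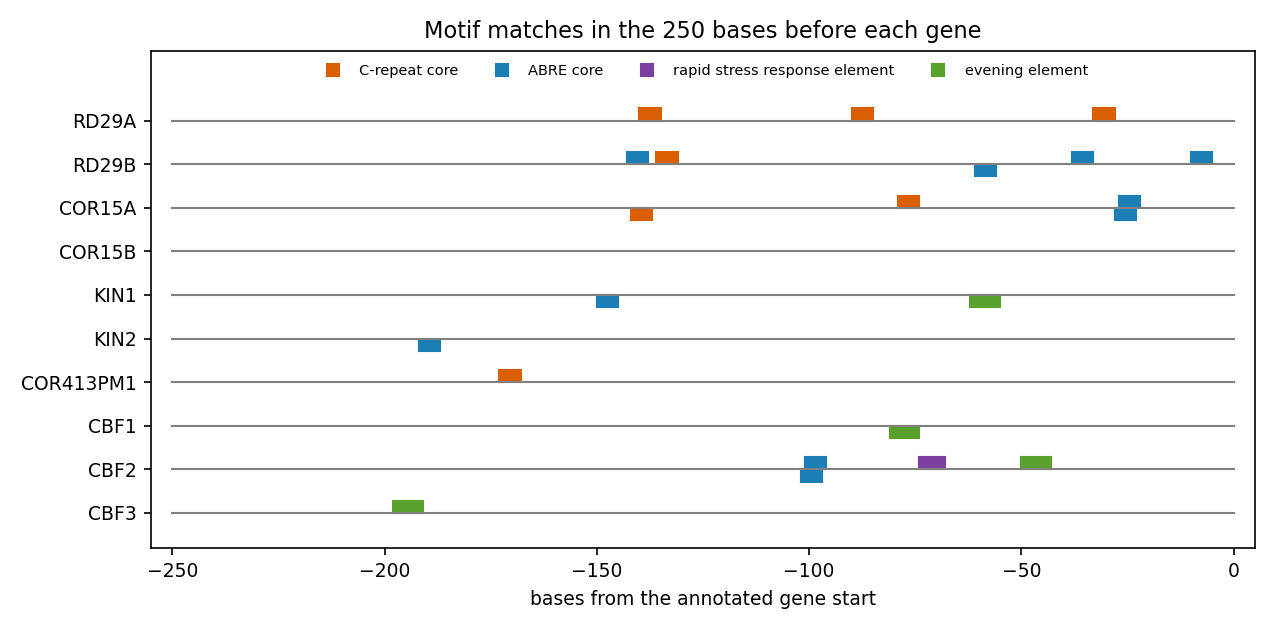
Matches to the 4 short motifs in the 250 bases before the annotated start of each of the 10 genes. The sequence is that of TAIR10.1, which is of another accession than C24. The mark labelled evening element is AATATCT, a shortened form of that element. The horizontal axis is the distance from the gene start in bases. Marks above a line are matches on the strand of the gene and marks below it are matches on the other strand. Within this window RD29A carries 3 C-repeat cores and no ABRE core, and RD29B carries 1 C-repeat core and 4 ABRE cores.

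Most members lie beside a paralog. RD29B (chromosome 5, 21237021 to 21239531, TAIR10.1) ends 1185 nt before RD29A (21240717 to 21243644), KIN1 (5209717 to 5210826) and KIN2 (5211719 to 5212743) are 892 nt apart on the same chromosome, and COR15B (chromosome 2, 17708593 to 17710433) and COR15A (17710441 to 17712330) are 7 nt apart. CBF2 (chromosome 4, 13015250 to 13016235), CBF3 (13018010 to 13019400) and CBF1 (13021780 to 13022996) form a tandem array, and COR413PM1 (chromosome 2, 6949851 to 6951192) has no paralog among the members. The 3 CBF genes have 1 exon and therefore no annotated intron, while the other 7 have between 2 and 5 exons in their annotated transcripts. In the coding sequence KIN1 and KIN2 were identical at 95% of aligned bases and the CBF pairs at 87.3 to 87.5%. Exact stretches of 50 nt were nevertheless rarely shared: 10 of the 780 such windows of KIN1 occurred in KIN2, 29 of the 1168 of CBF1 in CBF2, and none were common to RD29A and RD29B or to COR15A and COR15B. The way reads matching both copies were divided by the authors is not stated in the sources at hand.

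Many low FPKM values were whole multiples of the worth of 1 read, as at 12 of the 15 listed genes that stayed under 1 FPKM and were above 0 in at least 2 libraries. With the lengths of 366 of 1359 single-transcript loci, which fell on 1 common scale, this put the depth at 49200000 reads for C24, 54500000 reads for prp31, 40600000 reads for zop1 and 44300000 reads for sta1. The PRP31 transcript was lowest in the prp31 library (16.4 FPKM, against 23.2 to 25.1 FPKM in the others) and the ZOP1 transcript in the zop1 library (7.99 against 12.8 to 15 FPKM). STA1 was highest in sta1 (18.9 against 14.1 to 15.6 FPKM), and the labels do not say whether its lesion lowers the transcript. Of 5 photosynthetic markers 4 were at 2450 FPKM or more in every library and all 6 root markers were detected. In zop1 the root markers summed to 257 FPKM against 191 in C24, 180 in prp31 and 216 in sta1, led by the cell wall protein gene PRP3 (151.8 FPKM in zop1, 89.1 in C24). The photosynthetic markers summed to 18723 FPKM in zop1 and to 20438, 21372 and 21982 in C24, prp31 and sta1, and LHCB1.1, an antenna protein gene, was at 2450 FPKM in zop1 and 3372 in C24. RBCS1A, a Rubisco gene of green cells, was listed at 0 throughout, so a listed 0 need not mean that the gene was silent. Of the 6 seed markers, 4 passed the filter described next, and the summed level of the 6 was 15.2 FPKM in C24, 7.63 in prp31, 3.91 in zop1 and 9.97 in sta1. The seed storage protein genes CRA1 (6.14, 1.63, 0.643 and 1.47 FPKM in the order C24, prp31, zop1 and sta1) and CRC (5.37, 3.02, 0.0900 and 0.229 FPKM) were highest in C24. By contrast EM6, a late embryogenesis gene, was at 2.05, 1.63, 2.79 and 5.33 FPKM and the oleosin gene OLEO1 at 1.64, 1.28, 0.349 and 2.88 FPKM, both highest in sta1, where the median difference of the 6 was 0.03. The part of these tissue differences in the results was not tested.

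In the wild type the members spanned almost 4 orders of magnitude. COR413PM1 was highest at 596 FPKM, followed by RD29B at 113, COR15A at 52.7, KIN2 at 49.1, RD29A at 24.8 and KIN1 at 15.6 FPKM. COR15B, CBF2, CBF3 and CBF1 were at 2.35, 1.70, 0.779 and 0.0821 FPKM. COR15A and KIN2 were neighbours in that order at nearly the same level, and their order was the reverse in each mutant library. In zop1 RD29A ranked above COR15A, at 43.8 against 22.7 FPKM, and in C24, prp31 and sta1 below it.

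**Figure D2:**
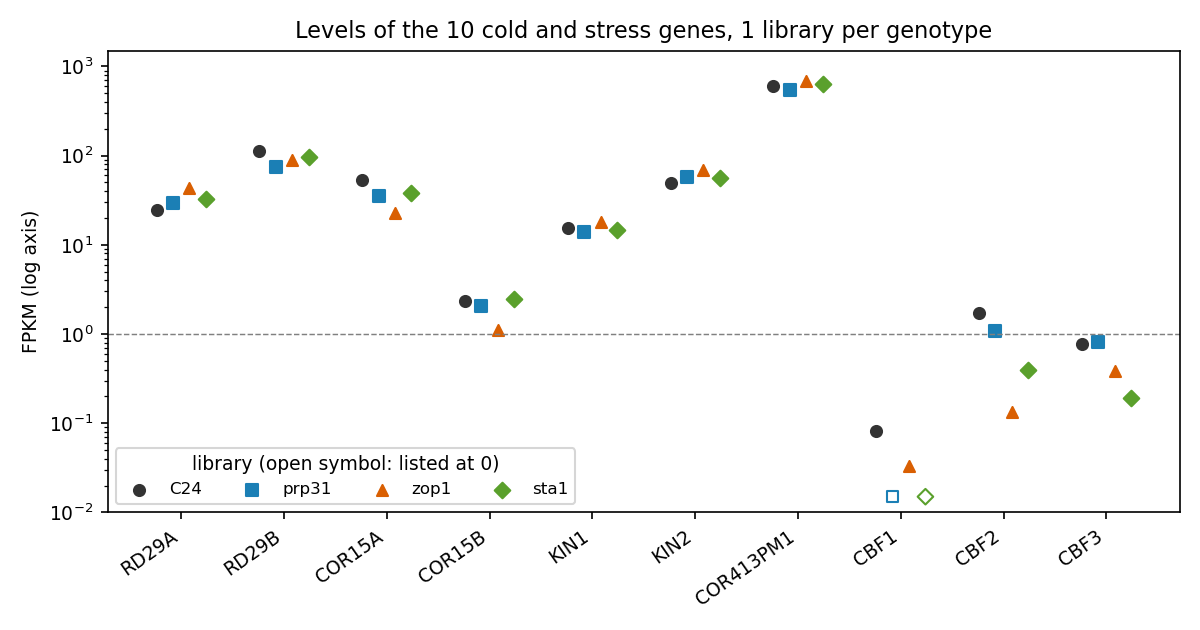
FPKM of the 10 genes in the 4 libraries on a log axis, 1 point per library. Open symbols at the bottom stand for CBF1 listed at 0 in prp31 and sta1, and the dashed line is 1 FPKM. RD29A is lowest in C24 (24.8 FPKM) and highest in zop1 (43.8 FPKM), whereas COR15A is highest in C24 (52.7 FPKM) and lowest in zop1 (22.7 FPKM).

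Differences between libraries were taken in log2(FPKM + 1), a scale that shrinks the change of weakly expressed genes. A locus was tested if its 4 values averaged 1 FPKM or more, and it was called higher or lower if it differed by 1 or more on this scale, the 2-fold rule. Of the 10 members 7 passed this filter and CBF1, CBF2 and CBF3 did not. In zop1, 1 of the 7 was lower (COR15A) and none was higher, where 1.28% of the 19240 tested loci were lower and 0.956% higher. In prp31 and in sta1 no member met the rule in either direction, where 0.426% and 1.19% of tested loci were lower and 0.515% and 0.79% higher. At a weaker 1.5-fold rule RD29B was lower in prp31 (1.37% of tested loci were) and no member was higher there (1.21%), COR15A and COR15B were lower in zop1 (3.86%) and RD29A was higher in zop1 (3.31%). No member met the 1.5-fold rule in sta1, where 4.05% of tested loci were lower and 2.19% higher by it. Between pairs of mutants, which leave out the wild type library, no member met the 2-fold rule. By that rule 0.873% of tested loci were higher and 1.11% lower in zop1 than in prp31, 0.65% and 1.02% in sta1 than in prp31, and 0.634% and 0.722% in sta1 than in zop1. By the 1.5-fold rule COR15A was lower in zop1 than in prp31, where 3.7% of tested loci were lower and 3.18% higher. No member met it between sta1 and prp31 (1.67% of tested loci higher, 3.19% lower), and none was lower in sta1 than in zop1 (3.04%).

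As a group the members did not move one way. Over the members the median difference stood at -0.13 for prp31, -0.20 for zop1 and -0.10 for sta1, beside medians of -0.02, -0.02 and -0.06 over all tested loci. Among the 10 genes 3 were above and 7 below the wild type in prp31, and 4 were above and 6 below it in zop1 and in sta1. Over the 7 members that passed the filter the median was 0.18 in zop1 and 0.05 in sta1, so the sign of the median in these 2 mutants rests on the CBF genes. These 3 comparisons share the wild type library.

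**Figure D3:**
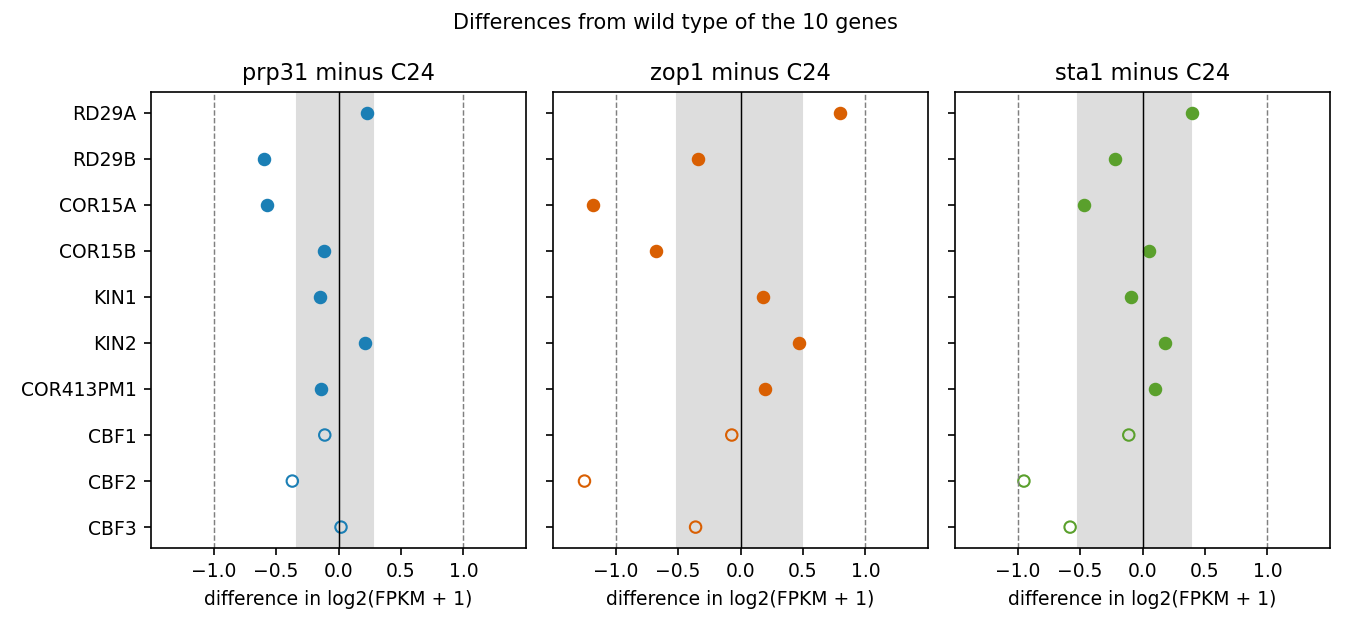
Difference in log2(FPKM + 1) between each mutant and C24 for the 10 genes, with filled points for the 7 genes that passed the filter and open points for the CBF genes. Grey bands span the central part of the 19240 tested loci, leaving out 5% at each end, and dashed lines mark the 2-fold rule. RD29A and COR15A lie outside the band on opposite sides in zop1, at 0.80 and -1.18.

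RD29A (AT5G52310), which encodes a hydrophilic stress protein and is the most used reporter gene of this response, was at 24.8 FPKM in C24, 29.2 in prp31, 43.8 in zop1 and 32.9 in sta1. All 3 mutant libraries were above the wild type library, and zop1 was the highest of the 4. The ratio to C24 was 1.77 in zop1 (95% counting interval 1.69 to 1.85), 1.33 in sta1 (1.27 to 1.40) and 1.18 in prp31 (1.12 to 1.24). The intervals rest on about 2995 reads in C24 and 3585 to 4375 in the mutants and cover counting error alone, not differences between plants or preparations. Among tested loci a difference as high or higher was found at 1.63% in zop1, 4.88% in sta1 and 7.61% in prp31. Without the wild type library, RD29A in zop1 was 1.5-fold above prp31 (1.44 to 1.57) and 1.33-fold above sta1 (1.27 to 1.39).

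RD29B (AT5G52300), the paralog that responds mainly to abscisic acid, was at 113 FPKM in C24, 74.3 in prp31, 89.3 in zop1 and 97.2 in sta1. Here all 3 mutant libraries were below the wild type, with prp31 the lowest. The level was 1.53-fold lower in prp31 (1.48 to 1.57), 1.27-fold lower in zop1 (1.23 to 1.31) and 1.17-fold lower in sta1 (1.13 to 1.2). A fall of that size or larger was found at 1.27% of tested loci in prp31, but at 10.2% in zop1 and 22.5% in sta1.

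The 2 RD29 genes thus lay on opposite sides of the wild type in each mutant library. Within a library, where depth cancels, the RD29A level was 0.218 of the RD29B level in C24, 0.393 in prp31, 0.490 in zop1 and 0.338 in sta1. RD29B stayed the higher of the pair in every library. The gene after RD29A, CYP96A4 (AT5G52320), a cytochrome P450 gene on the other strand, was at 7.08 FPKM in C24, 8.56 in prp31, 5.08 in zop1 and 5.91 in sta1. It was below the wild type in zop1, where RD29A was highest.

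COR15A (AT2G42540), whose product protects chloroplast membranes during freezing, was at 52.7 FPKM in C24, 35.2 in prp31, 37.8 in sta1 and 22.7 in zop1. Each mutant library was below the wild type, and zop1 was clearly the lowest. The level was 2.32-fold lower in zop1 (2.06 to 2.63), 1.5-fold lower in prp31 (1.36 to 1.65) and 1.40-fold lower in sta1 (1.26 to 1.55), from about 996 reads in C24 and 354 to 737 in the mutants. Differences as low or lower were found at 0.858%, 1.47% and 6.26% of tested loci. COR15A in zop1 was also 1.55-fold below prp31 (1.37 to 1.77) and 1.66-fold below sta1 (1.46 to 1.90), while prp31 and sta1 differed by 1.07-fold (0.963 to 1.19).

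COR15B (AT2G42530), its neighbour and paralog, was at 2.35 FPKM in C24, 2.08 in prp31, 1.1 in zop1 and 2.46 in sta1. The zop1 library was again the lowest, and the other 3 were close together. Recovered reads numbered 52 in C24, 51 in prp31, 20 in zop1 and 49 in sta1, which gave a level 2.15-fold lower in zop1 (1.26 to 3.80) and intervals that include no change for prp31 (ratio 0.885, 0.589 to 1.33) and sta1 (1.05, 0.694 to 1.58). Both COR15 genes met the 1.5-fold rule between sta1 and zop1, with sta1 higher by 0.71 and 0.72 on the log2 scale, where 1.78% of tested loci were higher by that rule. In each library COR15A was 15.3 to 22.4 times the COR15B level. The RefSeq gene of COR15B overlaps AT2G42520 on the other strand by 468 nt, and that gene was at 12.8, 13.3, 17.3 and 13.4 FPKM in C24, prp31, zop1 and sta1, highest where COR15B was lowest. The recovered reads imply a COR15B transcript of about 653 nt in the authors' annotation, against 1584 nt in RefSeq, so whether the overlap enters the counts is unknown.

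KIN2 (AT5G15970), also called COR6.6, and KIN1 (AT5G15960) encode small hydrophilic proteins induced by cold and abscisic acid. KIN2 was at 49.1 FPKM in C24, 57.1 in prp31, 68.2 in zop1 and 55.8 in sta1. The mutant libraries were all above the wild type, by 1.39-fold in zop1 (1.29 to 1.5), 1.16-fold in prp31 (1.08 to 1.25) and 1.14-fold in sta1 (1.05 to 1.23), and zop1 was the highest, as for RD29A. KIN1 was at 15.6 FPKM in C24, 14.0 in prp31, 17.8 in zop1 and 14.6 in sta1. These values spanned a narrow range, and the counting intervals against C24 included no change for prp31 (ratio 0.895, 0.786 to 1.02) and sta1 (0.934, 0.817 to 1.07) and began at 1.0 for zop1 (1.14, 1.0 to 1.30). The KIN2 level was 3.15 times the KIN1 level in C24 and 3.82 to 4.09 times in the mutants.

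COR413PM1 (AT2G15970), a predicted multi-pass protein of the plasma membrane, was the most abundant member at 596 FPKM in C24, 540 in prp31, 686 in zop1 and 640 in sta1. The libraries differed little beside those of the other members, with ratios to C24 of 0.906 in prp31, 1.15 in zop1 and 1.07 in sta1. Differences this far from 0 were common, at 19.1 to 24% of tested loci. Together the 10 genes summed to 857 FPKM in C24, 754 in prp31, 930 in zop1 and 881 in sta1, a sum dominated by COR413PM1.

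**Figure D4:**
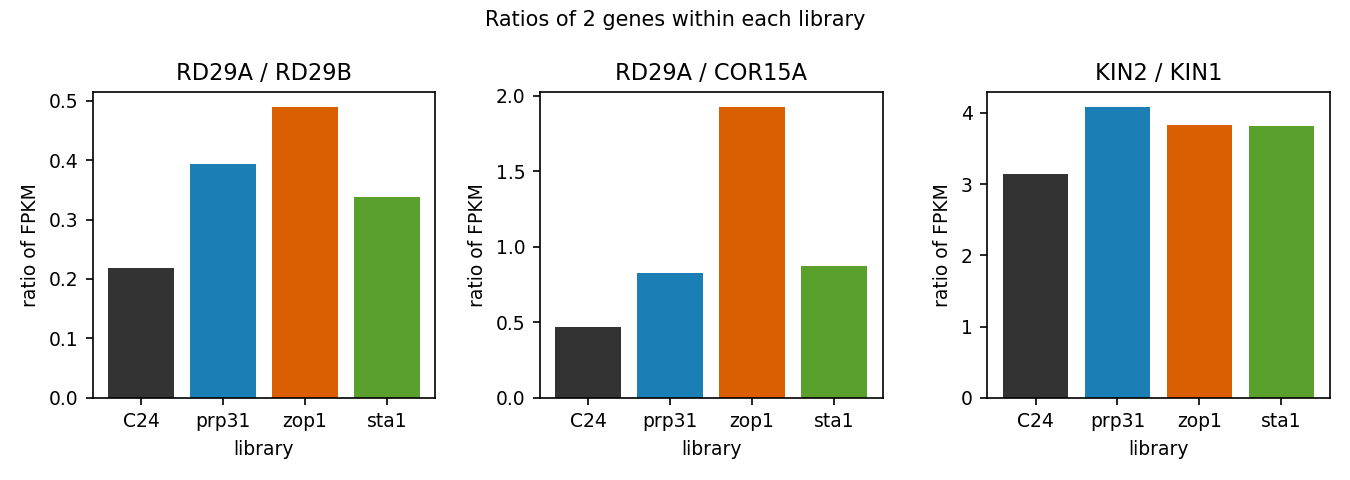
Ratio of the FPKM of 2 members within each library, drawn from 0, with 1 bar per library and no error bar because each genotype has 1 library. RD29A stands at 0.218 of RD29B in C24 and 0.338 to 0.490 in the mutants. RD29A stands at 0.470 of COR15A in C24, 0.829 in prp31, 0.872 in sta1 and 1.93 in zop1.

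The CBF genes were near the limit of detection in these unchilled seedlings, and their read numbers matter more than their FPKM. CBF2 (AT4G25470) was at 1.70 FPKM in C24 from 62 reads, 1.09 in prp31 from 44 reads, 0.396 in sta1 from 13 reads and 0.133 in zop1 from 4 reads. The zop1 and sta1 libraries were thus well below C24 and prp31. The level was 12.8-fold lower in zop1 (4.76 to 48.5), 4.30-fold lower in sta1 (2.34 to 8.51) and 1.56-fold lower in prp31 (1.04 to 2.35). The interval between sta1 and zop1 includes no difference (2.98, 0.921 to 12.6).

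CBF3 (AT4G25480) was at 0.779 FPKM in C24 from 27 reads, 0.807 in prp31 from 31, 0.384 in zop1 from 11 and 0.192 in sta1 from 6. Again C24 and prp31 were the higher libraries. The level was 4.05-fold lower in sta1 (1.64 to 12), while the intervals included no change for zop1 (2.03-fold lower, 0.974 to 4.53) and prp31 (ratio 1.04, 0.598 to 1.80). CBF1 (AT4G25490) had 3 reads in C24 and 1 in zop1, a ratio of 0.403 with an interval of 0.00768 to 5.02, and was listed at 0 in prp31 and sta1, where a count of 0 allows up to 3 reads, or 0.0741 and 0.0912 FPKM. It could not be compared at this depth.

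Summed over the array, the CBF reads were 92 in C24, 75 in prp31, 16 in zop1 and 19 in sta1, equal to 2.56, 1.90, 0.550 and 0.589 FPKM. The genes on either side of the array did not share this pattern. ABCB28 (AT4G25450), of the ABC protein family, was at 22.4, 28.5, 21.6 and 30.2 FPKM in C24, prp31, zop1 and sta1, and RS40 (AT4G25500), an arginine/serine-rich splicing factor, at 18.9, 18.1, 21.3 and 19.3 FPKM. Counting error does not order zop1 and sta1 by this sum. Among the CBF targets RD29A, KIN2 and, by little, KIN1 and COR413PM1 were at their highest in zop1, and COR15A and COR15B at their lowest.

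Other genes that stress or touch can induce within minutes to hours were also mostly below the wild type. Of 17 such genes 16 passed the filter, and by the 2-fold rule 10 were lower in zop1 (1.28% of tested loci were), 10 in sta1 (1.19%) and none in prp31 (0.426%). By the 1.5-fold rule 7 were lower in prp31 as well (1.37% of tested loci). All 17 lay below the wild type in zop1 and in sta1 and 15 in prp31, where 53.2%, 60% and 55.9% of tested loci did, and their medians were -1.14, -1.16 and -0.42. ZAT10, a zinc-finger repressor gene, was at 33.9 FPKM in C24, 19.2 in prp31, 3.51 in zop1 and 5.76 in sta1, and ZAT12, a zinc-finger gene of the early cold response, at 9.73, 6.14, 3.86 and 3.80 FPKM. RAV1, an AP2/B3 factor gene also induced early by cold, was at 12.5, 13.6, 5.60 and 5.73 FPKM. The others past the 2-fold rule were the ethylene response factor genes ERF5, ERF6 and ERF104, the WRKY factor genes WRKY33 and WRKY40, the zinc-finger gene SZF1 and the deadenylase gene CAF1a, which was lowest relative to C24 of these at -2.75 in zop1 and -2.62 in sta1. The list summed to 384 FPKM in C24, 291 in prp31, 167 in zop1 and 176 in sta1. The list was drawn up with earlier results of these data known, and the part of these shifts in the CBF values was not tested.

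**Figure D5:**
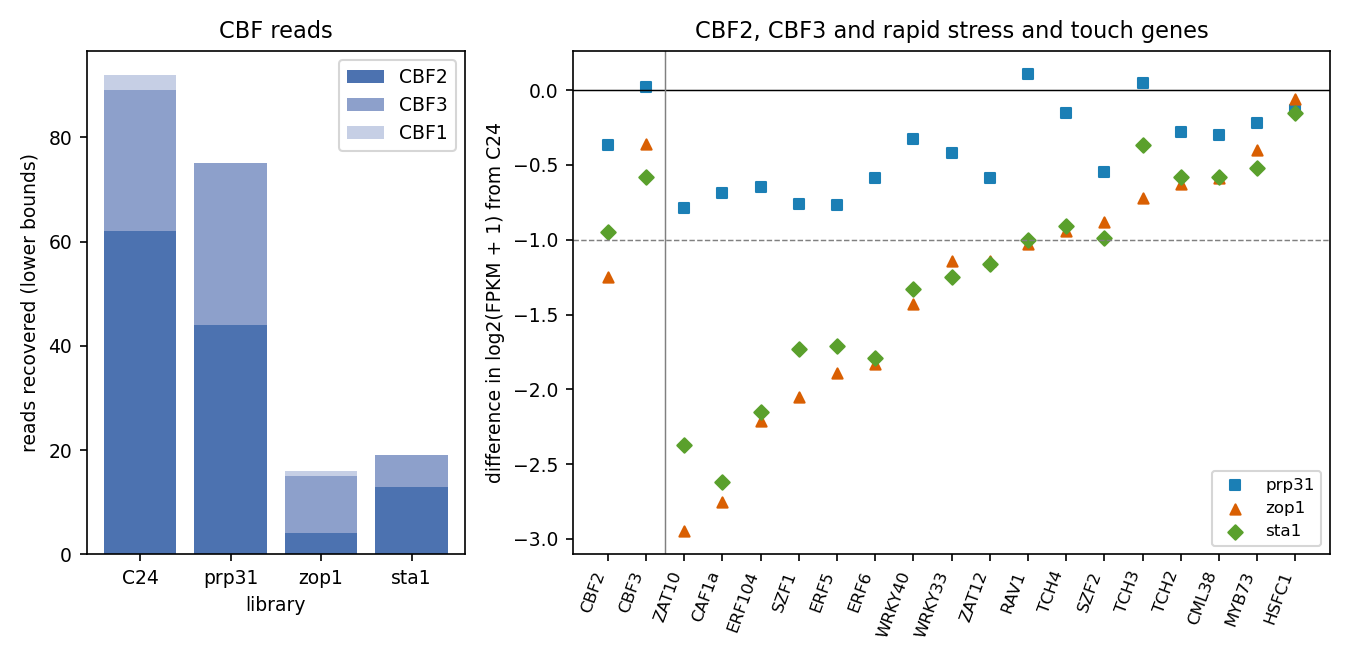
Left, reads recovered for CBF1, CBF2 and CBF3 in each library, stacked and not scaled for depth, which was 40600000 to 54500000 reads. Right, differences in log2(FPKM + 1) from C24 of CBF2, CBF3 and the 17 rapid stress and touch genes, with 1 symbol per mutant, a solid line at 0 and a dashed line at the 2-fold rule. The libraries held 92 (C24), 75 (prp31), 16 (zop1) and 19 (sta1) CBF reads, and most rapid genes lie further below 0 in zop1 and sta1 than in prp31.

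Of 20 genes that regulate the CBF genes, 18 passed the filter and none met the 2-fold rule in any mutant. At most 1.28% of tested loci met it in 1 direction in a mutant, so none among 18 is near that share. The medians of the 20 were -0.03 in prp31, 0.01 in zop1 and -0.10 in sta1. ICE1, the bHLH activator named for CBF3, was at 21.0 FPKM in C24, 18.8 in prp31, 21.2 in zop1 and 16.8 in sta1. On the log2(FPKM + 1) scale the furthest from the wild type was PIF3, a phytochrome-interacting repressor of CBF genes, at 17.7 FPKM in C24, 18.3 in prp31, 33.0 in zop1 and 19.5 in sta1, and its ratio to C24 in zop1 was 1.86 (1.75 to 1.98). MYB15, another repressor, was further away as a ratio but below the filter. It was at 0.606 FPKM in C24 from 34 reads, 0.402 in prp31 from 25, 0.194 in zop1 from 9 and 0.139 in sta1 from 7. The MYB15 level was 4.37-fold lower in sta1 (1.91 to 11.7) and 3.12-fold lower in zop1 (1.47 to 7.40), and the interval for prp31 included no change (1.51-fold lower, 0.873 to 2.64). Of 11 clock genes, which gate CBF expression by time of day, none met the rule, again near the share over all tested loci. Their differences lay between -0.29 and 0.43, the latter that of ELF3, an evening complex gene, in zop1 (7.91 against 5.63 FPKM in C24). The highest in prp31 (0.41) and in sta1 (0.42) were above the limit that 5% of tested loci exceeded (0.28 and 0.39). The highest in zop1 was below that limit (0.49). The morning gene CCA1 was at 122, 112, 122 and 120 FPKM and LHY at 70.7, 94.1, 72.4 and 90.5 FPKM in C24, prp31, zop1 and sta1, so both were well expressed in every library.

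Related DREB factors were also low. DREB2A, a drought and heat factor, was at 1.42 FPKM in C24, 1.22 in prp31, 1.16 in zop1 and 1.83 in sta1, and CBF4, DDF1, DREB2B and DREB2C stayed below 0.8 FPKM in each library. DDF2 was listed at 0 in all 4, which need not mean that it was silent. Of 5 genes for ABRE-binding factors, 4 passed the filter and none of these met the 2-fold rule in any mutant. At most 1.28% of tested loci met it in 1 direction, so this is near that share. ABF2, ABF3 and ABF4 were the more abundant of the 5. ABF3 was at 114 FPKM in C24, 99.4 in prp31, 139 in zop1 and 163 in sta1, ABF4 at 36.0, 28.8, 31.0 and 32.5 FPKM, and ABF2 at 38.7, 31.7, 45.1 and 42.1 FPKM. ABF1 was at 2.70, 2.53, 2.58 and 1.66 FPKM, and ABI5, the seed factor of this family, at 0.643, 0.786, 0.649 and 0.774 FPKM, below the filter.

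Among 25 further cold-regulated genes 22 passed the filter, none was higher by the 2-fold rule in any mutant, and 1 was lower, in sta1. Of tested loci 0.515%, 0.956% and 0.79% were higher by it in prp31, zop1 and sta1, and 0.426%, 1.28% and 1.19% lower. The lower gene was RAB18, a dehydrin gene of the abscisic acid route, at 86.2 FPKM in C24, 44.4 in prp31, 43.0 in zop1 and 42.6 in sta1. By the 1.5-fold rule 1 was lower in prp31, 2 in zop1 and 1 in sta1, where 1.37%, 3.86% and 4.05% of tested loci were. Besides RAB18 this was ADH1 in zop1, at 17.8 FPKM in C24, 14.0 in prp31, 8.52 in zop1 and 15.9 in sta1. Medians over the 25 were -0.04, -0.04 and 0.02 in prp31, zop1 and sta1. Other dehydrin genes were near the wild type, as COR47 at 392, 395, 442 and 399 FPKM and ERD10 at 231, 225, 214 and 212 FPKM show. RAP2.1, a DREB-type repressor gene and CBF target, was at 4.79 FPKM in C24, 3.39 in prp31, 4.67 in zop1 and 3.57 in sta1.

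Genes that share elements with RD29A, RD29B or CBF2 gave medians near 0. Of 44 tested loci with 3 or more CCGAC matches in the 250 bases before the gene, the median difference from C24 stood at 0.01, 0.02 and -0.02 in prp31, zop1 and sta1, none was higher by the 2-fold rule and 1 was lower in each mutant. That 1 locus is 2.27% of the 44, where 0.426%, 1.28% and 1.19% of all tested loci were lower and 0.515%, 0.956% and 0.79% higher, so a set of this size can show little. For 298 tested loci with 4 or more ACGTG matches, each CACGTG counted as 2, the medians were -0.02, -0.03 and -0.03. For 491 tested loci with a CGCGTT, as at CBF2, the medians were -0.02, -0.02 and -0.06. Of these loci 2.04% were lower by the rule in zop1, 1.43% in sta1 and 0.815% in prp31. That is 10, 7 and 4 loci, and 1, 3 and 1 were higher. Among 10939 tested protein-coding loci with none of the 4 motifs, 0.932%, 0.887% and 0.274% were lower in zop1, sta1 and prp31.

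A search of 13550 protein-coding loci with a transcript of at least 500 nt and a mean of at least 5 FPKM gave the genes whose 3 differences from the wild type were closest to those of a member, by Euclidean distance over the 3 mutant libraries. Closest to RD29A were the DEAD/DEAH box helicase gene AT3G02060 (distance 0.060), at 16.1 FPKM in C24 and 28.7 in zop1, the homeodomain gene BLH6 (0.071), AT1G79150 (0.080), the protein kinase gene AT3G59350 (0.088) and AT1G60640 (0.091). COR15A had fewer close matches, led by the pyruvate decarboxylase-family gene AT4G33070 (0.109), at 8.33 FPKM in C24 and 2.92 in zop1, followed by AT3G61080 (0.188), the metallothionein gene MT1B (0.214), LSU4 (0.215) and AT1G26800 (0.233). Matches of CBF3 are not reported, since its differences are compressed by the added 1 FPKM. The closest locus, AT1G05805, went from 8.24 FPKM in C24 to 5.19 in sta1, a far smaller ratio than that of CBF3. With 3 differences per gene that share 1 wild type library, such likeness is a description of these libraries.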

How the data were processed

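Messenger RNA of 4 seedling libraries, 1 per genotype, had been sequenced, and groups were taken from the genotype labels. The authors deposited these as FPKM values in a single table. The submitters' processing notes name the build TAIR10 and, as tools, Cuffdiff, Cufflinks 2.0.1, Bowtie and TopHat2 2.0.12. Their roles and settings, strandedness and the treatment of reads with several matches are not stated there. Positions, transcripts and sequences came from RefSeq TAIR10.1, matched by locus; reads of C24 plants were compared by the authors with a genome of another accession, which can lower the level of divergent genes alike in all libraries.

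The 10 members and 10 other lists (104 genes) were chosen with earlier results of these data known. Differences were taken as log2(FPKM + 1) with Python 3.11.15 and pandas 2.3.3, over the 19240 loci averaging 1 FPKM or more. Genes named are all members, list genes that a mutant moved past the 2-fold rule (otherwise the furthest one), all DREB, ABRE-binding and mutated genes, chromosomal neighbours and the 5 loci most like RD29A and COR15A (of those for CBF3, only the closest). COR47, ERD10, RAP2.1, ADH1, ICE1, MYB15, CCA1, LHY, OLEO1 and RBCS1A were named in addition, after their values were seen.

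Whole reads were sought for listed genes with up to 100 reads, as the smallest numbers that fit all libraries within 0.02 reads; a shared divisor cannot be seen, so they are lower bounds. Tested on 1484 simulated loci, the step recovered 100.0%, of which 97.0% were right, and accepted 0.472% of distorted loci. Depth followed from 366 of 1359 single-transcript loci whose implied effective length was 204 nt short of the transcript. For more abundant genes reads were estimated from the shortest transcript. The 95% intervals of ratios are exact binomial (Clopper-Pearson, SciPy 1.17.1) on the reads of the 2 libraries and cover counting error only.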

Additional observations from a re-analysis of the deposited data

How the results depend on the processing

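No paired analysis was possible because each genotype had 1 library, and no library could be left out of a comparison. Under 6 alternatives (pseudocounts of 0.1 and 5, no filter, a filter at 5 FPKM, median-of-ratios and upper-quartile scaling) all 30 differences of a member from the wild type kept their sign. A pseudocount or a filter cannot change a sign. Only the scalings could, and their largest shift from C24 on the log2 scale was small (-0.059, sta1, median-of-ratios). Of 168 member differences under the alternatives 14 moved beyond the counting error, mostly of CBF genes, whose low levels are compressed by the pseudocount. CBF2 in zop1 lay between -2.95 (pseudocount of 0.1) and -0.38 (pseudocount of 5). COR15A in zop1 stayed between -1.21 and -1.06, and RD29A in zop1 between 0.71 and 0.82. COR15B in zop1 was at -1.04 with a pseudocount of 0.1 and so past the 2-fold rule.

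The median of the 10 members in zop1 was -0.40 with a pseudocount of 0.1 and 0.19 over the members averaging 5 FPKM or more; over those averaging 1 FPKM or more, an alternative added after seeing the data, it was 0.18 in zop1 and 0.05 in sta1. Counts over all loci moved by more than 1.5 times as follows. With a pseudocount of 0.1, 289 loci were higher and 389 lower in zop1 and 232 and 387 in sta1. With a pseudocount of 5 the counts were 58 and 43 in prp31, 80 and 100 in zop1 and 79 and 101 in sta1. At a mean of at least 5 FPKM 54 were higher and 40 lower in prp31, 159 were lower in zop1, and 92 were higher and 147 lower in sta1. With the 1.5-fold rule they were 233 and 264 in prp31, 637 and 742 in zop1 and 421 and 779 in sta1. The counts under the 2-fold rule were 99 and 82 in prp31, 184 and 247 in zop1 and 152 and 229 in sta1. These changes follow from how each alternative treats low values or the threshold.

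Depth limits the CBF genes most: the counting interval of CBF2 in zop1 rests on 4 reads and that of CBF3 in sta1 on 6.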
